A study of Homo sapiens with 11 samples.

Results

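The 10 genes described here encode NF-κB subunits (NFKB1, RELA, NFKB2, RELB), inhibitors of the pathway (NFKBIA, NFKBIE, TNFAIP3), the catalytic IKK kinases (IKBKB, CHUK) and the adaptor TRAF1. They were taken by symbol from both count tables, 10 of the 26485 gene symbols that each table lists, and all 10 passed the filter on low counts at both time points. The 10 genes, and the gene lists set beside them, were chosen with earlier results of these data known. RNA was sequenced from Caki-1-SR cells, a subline of Caki-1 kept in medium with 1 µM sunitinib, to which it is resistant. Caki-1 is a human clear cell renal cell carcinoma line derived from a skin metastasis. The study's text names clone 1, a single clone, as the cells of the 24 h experiment. The ODC groups were given a mix of parthenolide at 5 µM, Rapta-C at 2 µM, and erlotinib and metformin at 1 µM each, for 24 h or 2 h. CTRL cells received none of these, and are called untreated in one place of the study and sham-treated in another. There were 3 CTRL and 3 ODC libraries at 24 h, and 2 CTRL and 3 ODC libraries at 2 h.

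NF-κB transcription factors are dimers held inactive in the cytoplasm by inhibitors of the IκB family. In the canonical arm, IKBKB (IKKβ) marks IκB for destruction and frees dimers of RELA and p50, the product of NFKB1. In the non-canonical arm, CHUK (IKKα) drives the processing of the NFKB2 product, which pairs with RELB. NFKBIA (IκBα), NFKBIE (IκBε), TNFAIP3 (A20), NFKB2, RELB and TRAF1 are themselves well known targets of NF-κB, so that several act as feedback on the pathway. Parthenolide, the anti-inflammatory plant compound of the mix, is known as an inhibitor of IKK. The comparison asks how the transcripts of both arms and of their inhibitors stood after treatment with the mix. Each drug alone was not analysed here, and in bulk libraries fewer cells with a transcript and less of it per cell cannot be told apart.

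The 24 h and 2 h libraries were sequenced in different months, so that time and sequencing month coincide. The libraries held 17785229 to 20882856 counts at 24 h and 25782895 to 31118349 at 2 h. Of 8 renal epithelial markers, 6 lay above 3 counts in every library, among them PAX8, KRT8 and KRT18, whereas PAX2 and CA9 were at or near 0. Endothelial markers summed to at most 0.166 CPM at 24 h. The 6 immune markers summed to 5.82 to 7.98 CPM at 24 h, mostly CD68. The 4 fibroblast markers summed to 66.6 to 169.2 CPM at 24 h. Nearly all of that was COL1A1 and PDGFRB, which lay above 3 counts in every library of both time points. Library 1 of CTRL at 2 h stood apart, with the fibroblast gene COL1A2 at 37.6 CPM against at most 0.356 CPM in the other 10 libraries, and with all 4 endothelial markers above 3 counts. In ODC at 2 h, library 4 had the highest value of the 5 libraries in 5 of the 10 genes, and library 3 the lowest in 6. Such counts were not made over all genes. Library 4 was marked from the values of the 10 genes themselves, so fold changes without it are a description. Fold changes at 2 h without CTRL library 1 and ODC library 4 are given for NFKB1, NFKB2, RELB, NFKBIA, NFKBIE, TNFAIP3 and TRAF1. They are not given for RELA, IKBKB, CHUK or genes outside the 10.

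Levels were compared between genes as CPM, the counts divided by the library total and scaled with TMM factors, per kilobase of the gene's reference transcript. In CTRL at 24 h, RELA was the most abundant of the 10 genes, at 41.4 ± 1.56 CPM per kb (SD, n = 3). NFKB2 followed at 26.2 ± 4.89, NFKB1 at 23.0 ± 3.40 and NFKBIA at 20.6 ± 4.00 CPM per kb, and the ranges of these 3 neighbours overlapped. The kinases IKBKB (13.9 ± 2.40 CPM per kb) and CHUK (12.0 ± 0.999 CPM per kb) lay below them, and overlapped each other. RELB stood at 8.18 ± 2.76 CPM per kb and NFKBIE at 7.73 ± 2.03 CPM per kb, overlapping each other, and the highest RELB library overlapped CHUK. TNFAIP3 at 2.61 ± 1.18 CPM per kb and TRAF1 at 0.811 ± 0.925 CPM per kb were lowest, and neither overlapped its neighbour above. In CTRL at 2 h, RELA was again highest, at 38.2 ± 0.788 CPM per kb (SD, n = 2), and TRAF1 lowest, at 0.220 ± 0.128 CPM per kb. The CTRL cells held more transcript per kilobase of the canonical RELA than of the non-canonical RELB.

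The sites to which NF-κB binds have a known consensus, the κB motif. It was searched on both strands in the 250 bases before transcript starts of the RefSeq promoter table (GRCh38.p14). For the 10 genes, 13 windows of 7 genes were searched. No window of RELB, NFKBIE or IKBKB was searched, so the motif was not tested for these genes. The motif was found in 5 windows of 4 genes, NFKB1, NFKB2, NFKBIA and TNFAIP3, and it was found in 5.21% of all 35116 windows of that length. No match lay in the windows of RELA, CHUK and TRAF1. The 30 bases around matches are given below for these 4 feedback and subunit genes, in the direction of transcription, 5′ to 3′, with the matched letters in capitals. Of 4 such stretches of NFKB2, the first and the last are given. The capitals of the first NFKB2 stretch cover 3 overlapping matches, and those of TNFAIP3 cover 2 matches that do not overlap. A match is a description of the sequence, and binding was not measured.
NFKBIA, chr14:35404811-35404840, minus strand: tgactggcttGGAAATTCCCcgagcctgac
TNFAIP3, chr6:137867188-137867217, plus strand: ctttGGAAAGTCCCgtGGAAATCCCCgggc
NFKB1, chr4:102501300-102501329, plus strand: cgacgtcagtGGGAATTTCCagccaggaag
NFKB2 first stretch, chr10:102394462-102394491, plus strand: aaacgtcatGGGAATTCCCCcctccggggg
NFKB2 last stretch, chr10:102395674-102395703, plus strand: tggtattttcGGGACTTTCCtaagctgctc

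At 24 h, the non-canonical subunits and the IκB inhibitors were higher in ODC, the canonical kinase IKBKB was lower, and the canonical subunits stayed close to CTRL. No gene of the 10 reached an adjusted p under 0.05, the lowest being 0.0982 for NFKBIA with edgeR's quasi-likelihood test and Benjamini-Hochberg adjustment over 12689 genes. Over all these genes, 0.189% had such a p. With edgeR's likelihood ratio test 5 of the 10 genes had one, and with DESeq2 4. The share of all genes under these 2 tests is not given here, and the 0.189% does not apply to them. With libraries of adjacent numbers taken as pairs, a pairing that the labels do not state, 3 of the 10 genes (NFKBIA, IKBKB and TRAF1) had one in edgeR's quasi-likelihood test. In that paired fit 686 of all 12689 genes had one. At an unadjusted p under 0.05, 5 of the 10 genes were higher in ODC (7.2% of all genes) and 1 was lower (5.04% of all genes). Because the 10 genes were chosen with earlier results of these data known, this comparison with all genes is a description. The median log2 fold change of ODC against CTRL was 0.58 over the 10 genes, of which 8 were higher, and 0.00089 over all genes. The fold changes at both time points are plotted with their intervals.

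**Figure D1:**
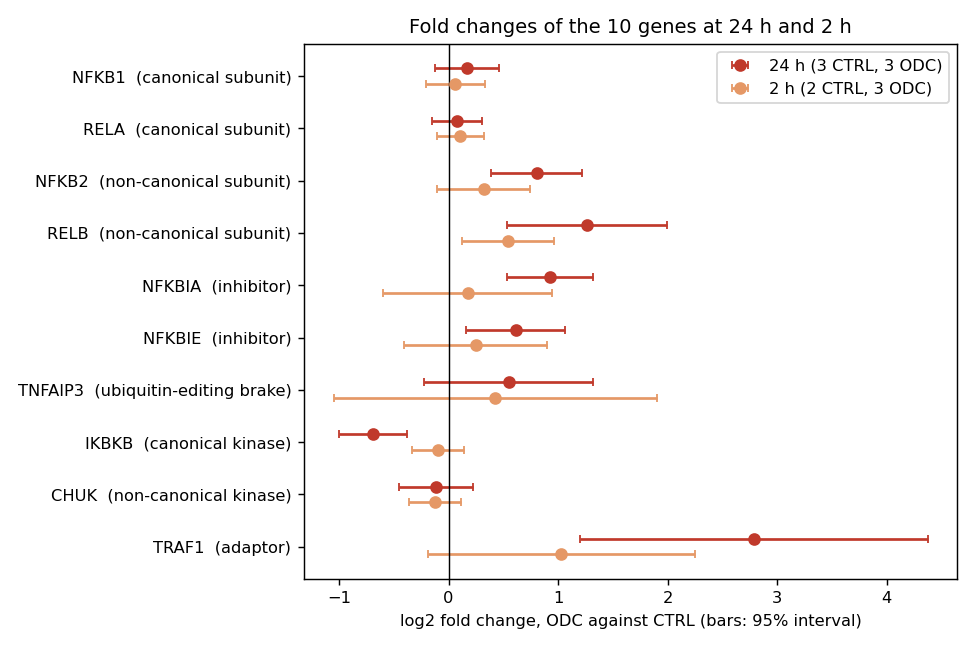
Log2 fold change of ODC against CTRL (horizontal axis) with its 95% interval for the 10 genes, at 24 h (red) and 2 h (orange). At 24 h the intervals of NFKB2, RELB, NFKBIA, NFKBIE and TRAF1 lie above 0 and that of IKBKB below it, whereas at 2 h only that of RELB leaves out 0.

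The canonical subunits differed little at 24 h. NFKB1, on chromosome 4 (102501330 to 102617302, hg38), had 99.6, 77.3 and 102.5 CPM in CTRL libraries 1, 3 and 5, and 98.0, 110.5 and 106.4 CPM in ODC libraries 2, 4 and 6. The groups overlapped, CTRL library 3 being the lowest, and the log2 fold change was 0.17 ± 0.126 (SE), with an adjusted p of 0.644 in edgeR's quasi-likelihood test. RELA, the transactivating partner of p50 on chromosome 11 (65653599 to 65663090), had 99.7, 106.4 and 106.6 CPM in CTRL and 99.4, 118.6 and 112.4 CPM in ODC. Its log2 fold change was 0.08 ± 0.0991, with a 95% interval of -0.15 to 0.31. For RELA, a change of more than 0.31 in either direction on the log2 scale therefore lay outside the interval.

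The non-canonical subunits were higher in every ODC library than in any CTRL library at 24 h. NFKB2, on chromosome 10 (102394110 to 102402524), had 75.4, 66.5 and 95.3 CPM in CTRL and 127.3, 170.1 and 116.7 CPM in ODC. ODC library 4 was highest, and the lowest ODC library exceeded the highest CTRL library. The log2 fold change of NFKB2 was 0.80 ± 0.180, with an unadjusted p of 0.00213 and an adjusted p of 0.133 in edgeR's quasi-likelihood test. RELB, on chromosome 19 (45001461 to 45038192), had 15.0, 14.8 and 25.7 CPM in CTRL and 37.7, 64.3 and 31.0 CPM in ODC. Here too library 4 was highest in ODC and library 5 highest in CTRL. The log2 fold change of RELB was 1.26 ± 0.316, a 2.40-fold difference, with an unadjusted p of 0.00398 and an adjusted p of 0.165 in edgeR's quasi-likelihood test.

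The inhibitors of the IκB family were also higher at 24 h. NFKBIA, which holds RELA dimers in the cytoplasm and lies on chromosome 14 (35401079 to 35404749), had 28.8, 28.1 and 39.3 CPM in CTRL and 56.8, 72.5 and 54.1 CPM in ODC. All ODC libraries lay above all CTRL libraries, with a log2 fold change of 0.93 ± 0.170, a 1.90-fold difference, an unadjusted p of 0.000602 and an adjusted p of 0.0982 in edgeR's quasi-likelihood test, or 0.0279 in the paired fit. NFKBIE, a second IκB that acts with a delay, on chromosome 6 (44258166 to 44265788), had 20.1, 12.7 and 21.6 CPM in CTRL and 25.7, 27.9 and 29.5 CPM in ODC. The groups did not overlap, but CTRL library 5 came close to ODC library 2, and the log2 fold change was 0.61 ± 0.197, with an unadjusted p of 0.0143 and an adjusted p of 0.262 in the same test.

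TNFAIP3, the ubiquitin-editing enzyme A20 that shuts off signalling above IKK, lies on chromosome 6 (137867214 to 137883314). It had 9.18, 8.82 and 18.5 CPM in CTRL and 12.6, 23.9 and 16.8 CPM in ODC at 24 h. CTRL library 5 lay above 2 of the ODC libraries, so the groups overlapped. The log2 fold change of 0.55 ± 0.335 had an unadjusted p of 0.140 in edgeR's quasi-likelihood test. With 1 library left out it ranged from 0.27, without ODC library 4 (unadjusted p of 0.439 in that test), to 0.98, without CTRL library 5 (unadjusted p of 0.00879 and adjusted p of 0.277 in that test).

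Of the kinases, IKBKB was lower at 24 h and CHUK was not distinguishable from CTRL. IKBKB, the catalytic subunit of the canonical arm, had 65.0, 52.9 and 46.4 CPM in CTRL and 34.0, 33.0 and 35.0 CPM in ODC. The ODC libraries lay close together and all below the lowest CTRL library, and the log2 fold change was -0.69 ± 0.135, with an unadjusted p of 0.000948 and an adjusted p of 0.107 in edgeR's quasi-likelihood test, or 0.0248 in the paired fit. CHUK, the kinase of the non-canonical arm on chromosome 10 (100188300 to 100229596), had 43.3, 39.6 and 46.8 CPM in CTRL and 40.3, 32.8 and 46.7 CPM in ODC. Its groups overlapped, with a log2 fold change of -0.11 ± 0.146 and a 95% interval of -0.45 to 0.22. KRT8 and KRT18, epithelial keratins, were lower with IKBKB at 24 h, with log2 fold changes of -0.62 and -0.71 and unadjusted p-values of 0.00693 and 0.00177 in edgeR's quasi-likelihood test. The part of this in the IKBKB difference was not tested.

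The difference in size was greatest for TRAF1, an adaptor of TNF receptor signalling on chromosome 9 (120902393 to 120929173). It had 37, 13 and 147 counts in CTRL libraries 1, 3 and 5, or 1.78, 0.678 and 8.13 CPM, and 357, 493 and 585 counts in ODC libraries 2, 4 and 6, or 17.6, 26.6 and 28.1 CPM. All ODC libraries lay above CTRL, and CTRL library 5 lay far above the other CTRL libraries. The log2 fold change was 2.79 ± 0.689, with a wide 95% interval of 1.20 to 4.38, an unadjusted p of 0.00371 and an adjusted p of 0.163 in edgeR's quasi-likelihood test. With 1 library left out the log2 fold change ranged from 2.30 to 4.27. The highest was without CTRL library 5, the highest CTRL library, with an adjusted p of 0.0234 in that test. Over 16 alternative fits with edgeR or DESeq2, the pairing not among them, the adjusted p of TRAF1 ranged from 0.0119 to 0.575. In the paired fit the log2 fold change of TRAF1 was 3.04 and its adjusted p in edgeR's quasi-likelihood test 0.0261.

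Counted by library, 5 of the 10 genes (NFKB2, RELB, NFKBIA, NFKBIE and TRAF1) were higher in every ODC library than in every CTRL library at 24 h, against 9.42% of all genes. IKBKB was the 1 gene lower in every ODC library, against 8.51% of all genes. These shares too are a description, since the 10 genes were chosen with earlier results known. Among the 24 h libraries, CTRL library 3 was the lowest in 7 of the 10 genes, and ODC library 4 the highest in 6. How often these libraries were lowest or highest over all genes was not counted. The plot of values by library shows these separations.

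**Figure D2:**
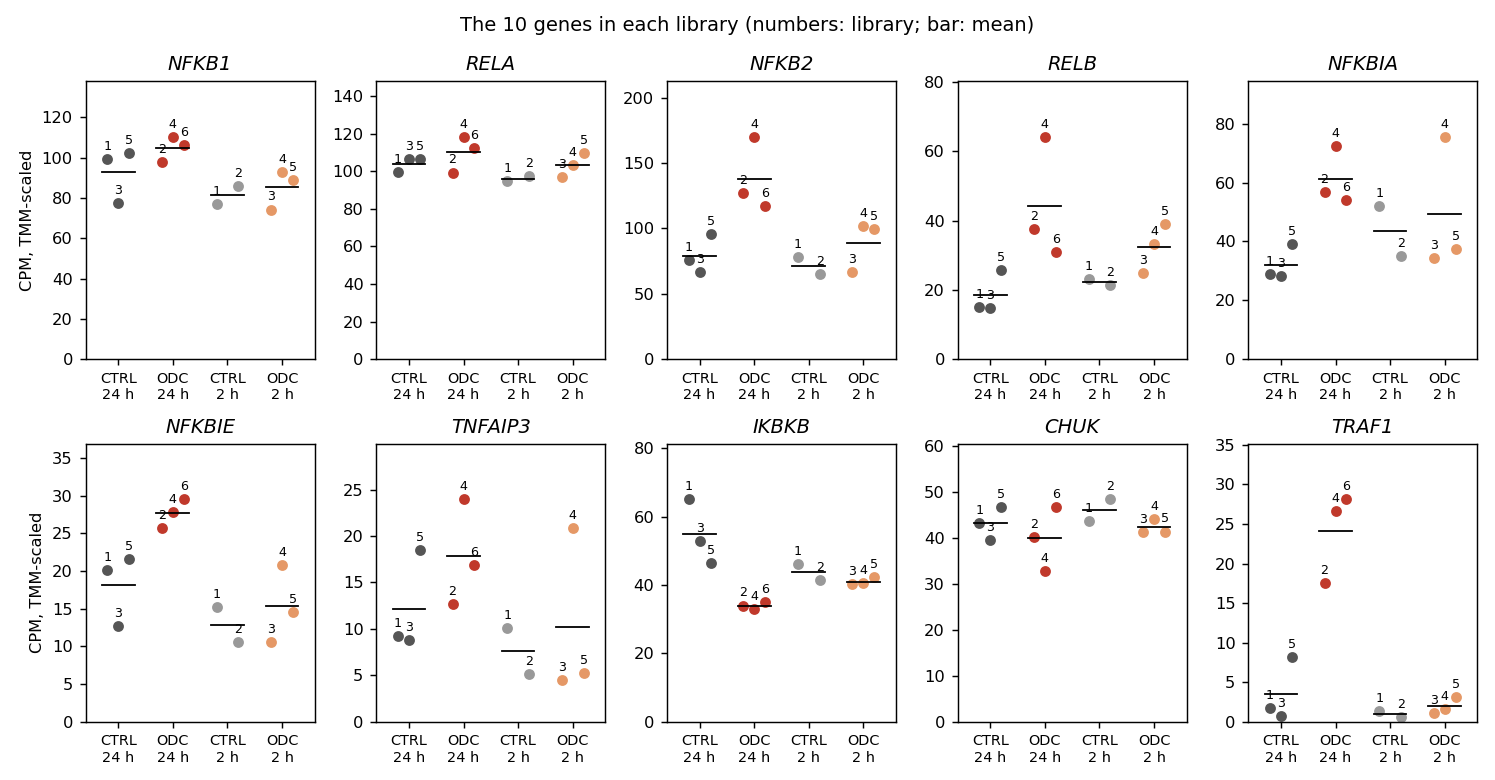
TMM-scaled CPM (vertical axes, from 0, a separate scale for each gene) of the 10 genes in the 11 libraries, with a bar at each group mean and the library number above each point. At 24 h, NFKB2, RELB, NFKBIA, NFKBIE and TRAF1 separate upward in ODC and IKBKB downward, and at 2 h library 4 of ODC carries the high values of NFKBIA, NFKBIE and TNFAIP3.

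At 2 h the differences were smaller. RELB alone had an unadjusted p under 0.05 among the 10 genes, higher in ODC, where 1.47% of all 13332 genes were. None of the 10 genes, and 0% of all genes, had an adjusted p under 0.05 in edgeR's quasi-likelihood test, and 312 genes had an unadjusted p under 0.05. DESeq2 and the likelihood ratio test also gave 0 of the 10 genes at an adjusted p under 0.05. The median log2 fold change was 0.21 over the 10 genes, of which 8 were higher in ODC, and -0.0060 over all genes.

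RELB had 23.0 and 21.5 CPM in CTRL libraries 1 and 2 and 24.9, 33.3 and 39.0 CPM in ODC libraries 3, 4 and 5 at 2 h. Every ODC library lay above CTRL, which 7.89% of all genes showed, and RELB was the 1 gene of the 10 to do so. The log2 fold change was 0.54 ± 0.183, with an unadjusted p of 0.0180 and an adjusted p of 1.00 in edgeR's quasi-likelihood test. Without CTRL library 1 and ODC library 4, which left 1 CTRL library, it was 0.56. Leaving out CTRL library 2 alone, which also left 1 CTRL library, gave a log2 fold change of 0.51. Leaving out ODC library 5 alone gave 0.39, with an unadjusted p of 0.0556 in edgeR's quasi-likelihood test. NFKB2 had 77.8 and 64.9 CPM in CTRL and 66.8, 101.4 and 99.1 CPM in ODC, with overlapping groups and a log2 fold change of 0.32 ± 0.183, or 0.34 without CTRL library 1 and ODC library 4.

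The inhibitors at 2 h turned on single libraries. NFKBIA had 52.1 and 35.1 CPM in CTRL and 34.5, 75.7 and 37.5 CPM in ODC, and its log2 fold change was 0.18 ± 0.335. TNFAIP3 had 10.1 and 5.19 CPM in CTRL and 4.54, 20.8 and 5.25 CPM in ODC, with a log2 fold change of 0.43 ± 0.640. ODC library 4 was the high one in both genes, and the other ODC libraries lay beside CTRL library 2. Without ODC library 4, the log2 fold changes turned to -0.27 for NFKBIA and -0.64 for TNFAIP3. Without both CTRL library 1 and ODC library 4 they were 0.027 and -0.096. NFKBIE had 15.3 and 10.5 CPM in CTRL and 10.5, 20.8 and 14.6 CPM in ODC, and showed the same single high library, with a log2 fold change of 0.25 ± 0.284, or 0.24 without CTRL library 1 and ODC library 4. In ODC library 4 the NF-κB targets IL6 and CSF2, both cytokines, stood at 58.2 and 23.7 CPM, against at most 6.87 and 1.52 CPM in ODC libraries 3 and 5. In CTRL library 1 they stood at 18.7 and 15.1 CPM, against 4.37 and 0.565 CPM in CTRL library 2. The 4 fibroblast markers summed to 281.5 CPM in CTRL library 1 and 158.7 CPM in ODC library 4, and the 4 endothelial markers to 1.28 and 0.162 CPM. The part of these markers' cells in the values of CTRL library 1 was not tested.

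The other genes stayed near CTRL at 2 h. IKBKB had 46.1 and 41.4 CPM in CTRL and 40.2, 40.4 and 42.3 CPM in ODC, with overlapping groups, a log2 fold change of -0.09 ± 0.103 and a 95% interval of -0.33 to 0.14. CHUK had 43.6 and 48.4 CPM in CTRL and 41.4, 44.1 and 41.4 CPM in ODC. NFKB1 ranged from 74.3 to 92.9 CPM and RELA from 94.7 to 110.0 CPM over the 5 libraries, with log2 fold changes of 0.06 ± 0.119 and 0.11 ± 0.0925. TRAF1 had few reads, with 35 and 16 counts in CTRL and 36, 50 and 90 counts in ODC. Its log2 fold change was 1.03 ± 0.530, with an unadjusted p of 0.0876 in edgeR's quasi-likelihood test. With 1 library left out it ranged from 0.54, without CTRL library 2 or ODC library 5, to 1.78, without CTRL library 1. Without ODC library 5 the unadjusted p was 0.306 in that test. Without CTRL library 1 and ODC library 4 the log2 fold change of TRAF1 was 1.89, resting on 1 CTRL library of 16 counts. No p is given where 1 CTRL library was left.

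Whether the 2 time points differed was tested as the 24 h effect minus the 2 h effect over all 11 libraries. None of the 10 genes had an adjusted p under 0.05 in edgeR's quasi-likelihood test, and 0.015% of all 13333 genes had one, a count of 2. IKBKB alone among the 10 genes had an unadjusted p under 0.05, with a difference of -0.61 ± 0.177 on the log2 scale, an unadjusted p of 0.00498 and an adjusted p of 0.584 in edgeR's quasi-likelihood test. A more negative effect at 24 h with such a p was found for 2.77% of all genes. For NFKB2, RELB and NFKBIA the differences were 0.46 ± 0.283, 0.70 ± 0.415 and 0.73 ± 0.414, each with an interval that held 0. A later or a stronger difference in these genes was therefore not separable from the spread between libraries.

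The arms were set against each other by ratios of partner genes within a library, in which library size cancels. These are ratios of counts, not corrected for length. Per kilobase, the CTRL mean of NFKB2 at 24 h lay above that of NFKB1 (26.2 against 23.0 CPM per kb), with overlapping ranges. A count ratio below 1 therefore does not mean less NFKB2 transcript than NFKB1 transcript. At 24 h, the ratio of NFKB2 to NFKB1 was 0.757, 0.860 and 0.930 in CTRL and 1.30, 1.54 and 1.10 in ODC, so that NFKB2 counts lay below NFKB1 counts in every CTRL library and above them in every ODC library. The log2 ratio was higher in ODC by 0.62, a 1.54-fold difference. The ratio of RELB to RELA was 0.151, 0.139 and 0.241 in CTRL and 0.379, 0.542 and 0.276 in ODC, a difference of 1.16 on the log2 scale or 2.24-fold. The groups did not overlap in either ratio, and each gave an exact permutation p of 0.1 (two-sided), the smallest that 3 against 3 libraries allow, and 0.267 after Benjamini-Hochberg adjustment over 8 tests.

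The ratio of the kinases CHUK to IKBKB at 24 h was 0.666, 0.749 and 1.01 in CTRL and 1.19, 0.993 and 1.33 in ODC. CTRL library 5 overlapped ODC library 4, and the log2 difference of 0.55 had an exact permutation p of 0.2. The ratio of the inhibitor NFKBIA to its target RELA was 0.289, 0.265 and 0.369 in CTRL and 0.571, 0.611 and 0.481 in ODC at 24 h, without overlap, a 1.81-fold difference with an exact permutation p of 0.1. At 2 h, where 2 against 3 libraries cannot go below 0.2, the ratio of RELB to RELA was the one without overlap (log2 difference 0.41, exact permutation p = 0.2). The log2 differences of the other ratios at 2 h were 0.24 for NFKB2 to NFKB1, -0.027 for CHUK to IKBKB and 0.0046 for NFKBIA to RELA, with exact permutation p-values of 0.4, 1 and 1.

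**Figure D3:**
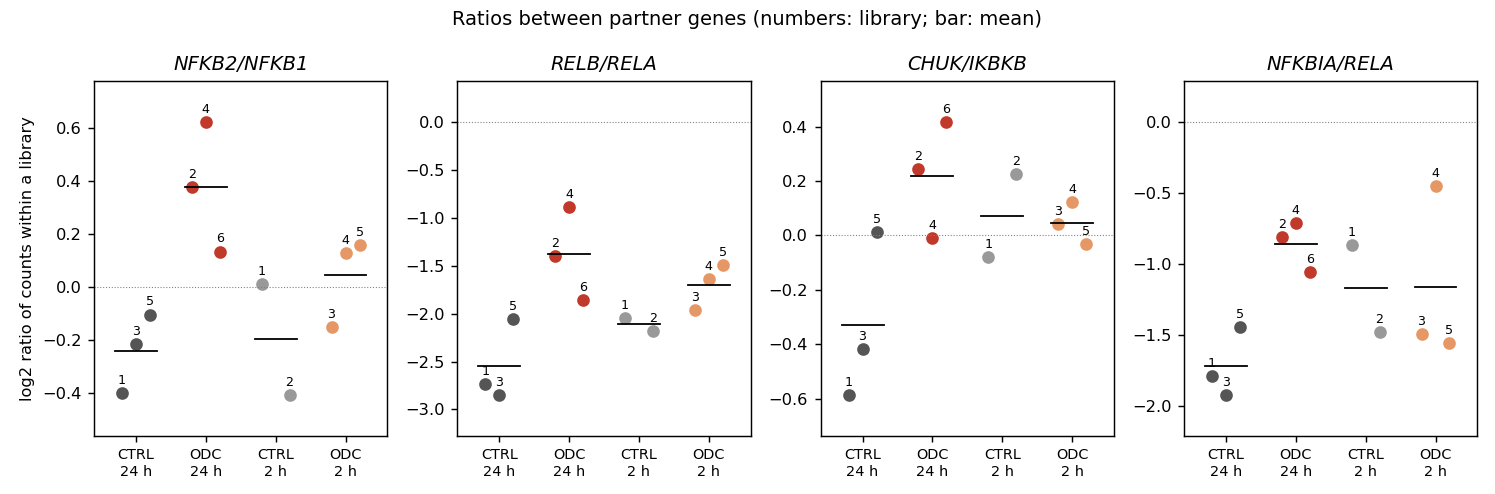
Log2 ratio of counts within a library (vertical axes, a separate scale for each ratio) for NFKB2/NFKB1, RELB/RELA, CHUK/IKBKB and NFKBIA/RELA, with a bar at each group mean and the library number above each point. At 24 h the ODC libraries lie above all CTRL libraries in each ratio but CHUK/IKBKB, where CTRL library 5 meets ODC library 4.

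The other components of the pathway were counted in the same way. Of 51 other components, all tested, 33 were higher in ODC at 24 h and 18 lower, and the median log2 fold change was 0.079. At an unadjusted p under 0.05, 7 were higher and 3 lower, where 7.2% and 5.04% of all genes were. The component lists were also written with earlier results of these data known. No component had an adjusted p under 0.05 in edgeR's quasi-likelihood test. Among other IκB proteins, NFKBIB (IκBβ) had a log2 fold change of 0.44 ± 0.125 and NFKBID, a nuclear IκB, of 0.80 ± 0.303. Of 7 brakes on IKK, CYLD, a deubiquitinase, was higher by 0.51 ± 0.133 and TNIP1, a partner of A20, by 0.48 ± 0.127 on the log2 scale. The IKK scaffold and IKK-related kinases had log2 fold changes with a median of 0.048, and none of the 4 had an unadjusted p under 0.05.

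Of 25 canonical receptors and adaptors, 13 were higher and 12 lower at 24 h. BIRC3, a ubiquitin ligase of the TNF receptor complex and itself an NF-κB target, was higher by 1.16 ± 0.332 on the log2 scale. BCL10, which carries antigen receptor signals to IKK, was lower by a log2 fold change of -0.69 ± 0.149, with an unadjusted p of 0.00164 and an adjusted p of 0.125 in edgeR's quasi-likelihood test. IRAK4, a kinase of IL-1 and Toll-like receptors, and TRAF5, a TNF receptor adaptor, had log2 fold changes of -0.43 and -0.34. The 4 components of the IκB ubiquitin ligase had a median of -0.028, with 0 at an unadjusted p under 0.05. All 6 non-canonical receptors and kinases had a log2 fold change above 0, with a median of 0.26, and 0 had such a p. They ran from 0.012 for CD40 to 0.54 for TNFRSF11A, and the share of all genes above 0 was not counted. MAP3K14 (NIK), the kinase that activates CHUK and a gene chosen after its values were seen, had a log2 fold change of 0.49 ± 0.238 and an unadjusted p of 0.0726 in that test.

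Of 31 listed NF-κB target genes outside the 10, 24 were tested at 24 h. Their median log2 fold change was 0.59, 20 being higher in ODC and 4 lower. At an unadjusted p under 0.05, 12 were higher and 1 was lower (7.2% and 5.04% of all genes), and 0 had an adjusted p under 0.05. The target list was written with earlier results of these data known, so the comparison with all genes is a description. IL6 had 18.6, 23.2 and 43.0 CPM in CTRL and 78.0, 106.5 and 101.3 CPM in ODC, without overlap. Its log2 fold change was 1.75 ± 0.294, with an adjusted p of 0.0859 in edgeR's quasi-likelihood test, the lowest of the list. The adhesion molecule ICAM1, the growth factor CSF1 and the chemokine CXCL2 had log2 fold changes of 1.51 ± 0.365, 1.35 ± 0.256 and 1.13 ± 0.274. TNFAIP8, chosen after its values were seen, was the lower one, at -0.52. At 2 h, 23 of 25 tested targets were higher in ODC, their median was 0.23, and 0 had an unadjusted p under 0.05. The median over all genes at 2 h was -0.0060. How many of all genes were higher in ODC was not counted at either time point. ODC library 4 was highest in 14 of these 25 targets, and CTRL library 2 and ODC library 3 were lowest in 13 and 9. Target values were not taken without CTRL library 1 and ODC library 4. At 2 h 2 components had an unadjusted p under 0.05, BCL3, a nuclear IκB, with a log2 fold change of 0.43 ± 0.118, and TICAM1, an adaptor of Toll-like receptors, with 0.50 ± 0.164.

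**Figure D4:**
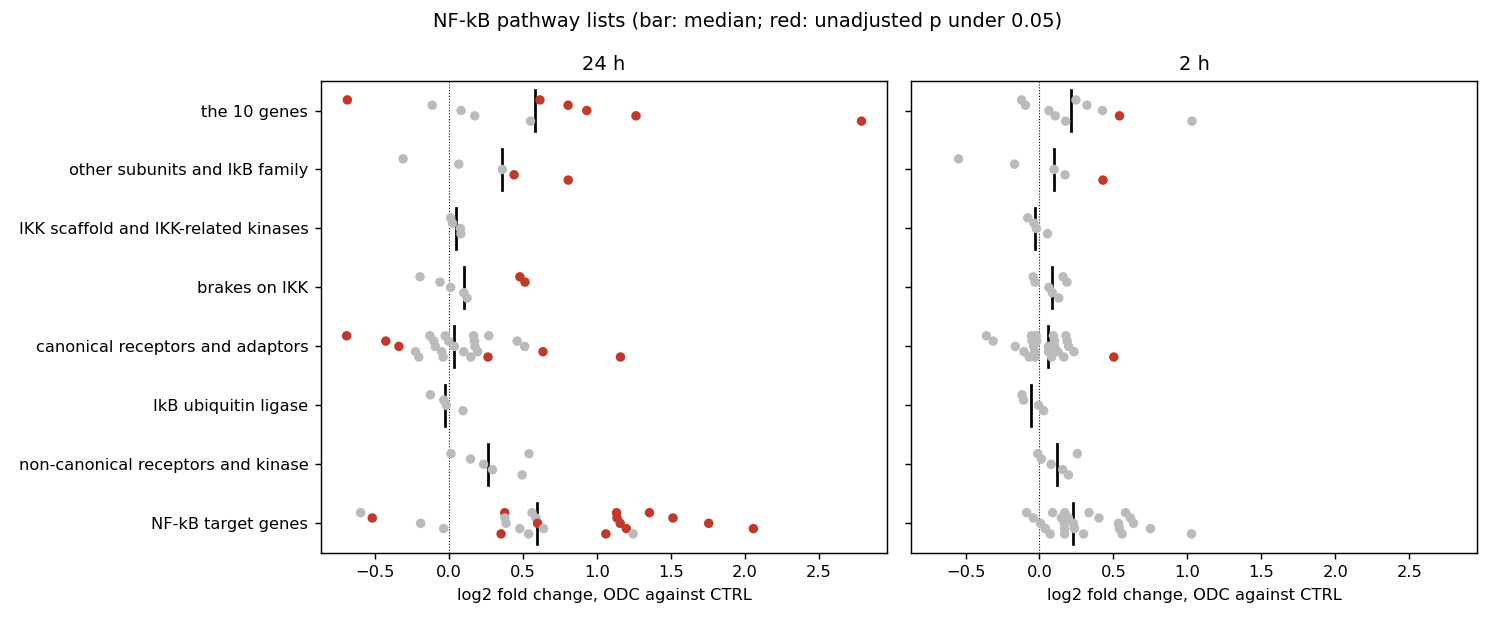
Log2 fold change of ODC against CTRL (horizontal axes) for each tested gene of the 10 and of 7 other lists (rows), at 24 h (left) and 2 h (right). Bars mark medians and red points an unadjusted p under 0.05, and at 24 h the medians of the 10 genes (0.58) and of the target genes (0.59) lie farthest to the right.

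The likeness of the genes was measured over the 11 libraries, each centred on the CTRL mean of its own time point. The pairs of the 10 genes ran from alike to opposed. NFKB2 and RELB were the most alike pair (Pearson r = 0.969), and RELB and IKBKB the most opposed (r = -0.844), and CHUK had values near 0 with NFKB1 (r = 0.093) and NFKBIE (r = -0.064). Over 10185 genes outside the 10, NFKBIA was most like IL6 (r = 0.950), followed by NMNAT1 and TSPAN2 (both r = 0.909). The genes most like NFKB2 were ICAM1 (r = 0.969), TRIM47 (r = 0.935) and LFNG (r = 0.930), and those most like RELB were ICAM1 (r = 0.968), SPARC (r = 0.959) and ARHGAP31 (r = 0.958). IKBKB was most like FKBP1A (r = 0.980), MAPKAPK3 (r = 0.979) and PSD3 (r = 0.967). These values are across libraries that share their treatment groups and depth, and are given as a description.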

How the data were processed

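The authors deposited raw counts of reads per gene, in 1 table for 24 h and 1 for 2 h, without normalization. They prepared stranded mRNA libraries (TruSeqHT), sequenced them as single-end reads, aligned them to hg38 with STAR (2.7.0f in the submitters' processing notes, another version in the paper) and counted with HTSeq 0.9.1. The strand setting of HTSeq is not given in the sources used here.

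From these counts, ODC was compared with CTRL at each time point by the quasi-likelihood F test (the earlier method) of edgeR 4.0.16, run in R 4.3.3, with TMM factors, filterByExpr (minimum count 10, minimum total 15) and Benjamini-Hochberg adjustment over all genes tested, two-sided, with a threshold of 0.05. The difference between time points was a contrast fitted over the 11 libraries together. Ratios were taken within a library after adding 0.5 counts, and were tested by exact permutation. Reported ± values are the SE of a log2 fold change or the SD of a level, and intervals are at 95%. A count of 3, the floor, equals 0.144 to 0.166 CPM in the 24 h libraries and 0.0953 to 0.116 CPM in those of 2 h, and covers counting error only.

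Positions are from GENCODE 44, and lengths from its MANE transcripts. No exon of another gene overlapped those of the 10 genes. Labels do not say whether libraries came from separate cultures, so p-values measure only the spread between these libraries. Replicates differed beyond sampling noise, with a chi-square per gene of 18.7 to 58.0, and each counted as 1. Libraries carry the labels' numbers, which groups of one time point do not share. Adjacent numbers at 24 h (1 and 2, 3 and 4, 5 and 6) deviated together from their group means, with correlations of 0.27, 0.63 and 0.49.

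The 10 genes and all lists were chosen with earlier results of these data known. Besides the 10 genes, the text names at most the 4 genes of each list with the smallest unadjusted p under 0.05 at a time point, and for NFKBIA, NFKB2, RELB and IKBKB the 3 genes with the highest correlation of log2 CPM (mean of at least 5 CPM). Alternatives covered the filter, scaling, test (DESeq2 1.42.0 among them), joint fit, pairing and each library left out. The fits were tested on simulated counts with 200 changed genes.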

Additional observations from a re-analysis of the deposited data

How the results depend on the processing

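At 24 h, 6 of the 10 genes had an unadjusted p under 0.05, and the count under an adjusted p of 0.05 was 0. The latter was 5 with the likelihood ratio test, 4 with DESeq2, 1 without a filter beyond 1 count, 1 in the joint fit of all 11 libraries and 0 to 1 when 1 library was left out. With the replicate block of adjacent library numbers the adjusted count was 3 (NFKBIA, IKBKB and TRAF1), and 686 of all genes against 24 without the block. Every library correlated best with its adjacent number, a hint from the data and not from the labels. At 2 h the unadjusted count of 1 became 3 without a filter beyond 1 count and 0 in the joint fit. Counts with libraries left out are not given at 2 h, since several of these fits held 1 CTRL library. Leaving out CTRL library 1 and ODC library 4 was a choice made after seeing the data. For the difference between time points the count of 1 became 2 without a filter beyond 1 count and 1 to 3 when 1 library was left out. Apart from the block, the share of all genes under each alternative is not given here. The cause of these shifts was not tested.

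Of 170 gene values at 24 h under the alternatives 1 turned its sign, of 160 at 2 h 8 did, and of 160 for the difference 13 did, and 15 at 24 h passed the adjusted threshold. The turns of sign came from leaving out libraries. With 1 library left out, the log2 fold change ranged from -0.24 to 0.0047 for CHUK at 24 h, and at 2 h from -0.013 to 0.16 for NFKB1, from -0.27 to 0.49 for NFKBIA, from -0.039 to 0.54 for NFKBIE and from -0.64 to 0.98 for TNFAIP3. Without CTRL library 1 and ODC library 4 it was -0.090 for NFKB1 and -0.096 for TNFAIP3 at 2 h. The difference between time points ranged from -0.44 to 1.17 for TNFAIP3, from -0.15 to 0.12 for CHUK, from -0.025 to 0.17 for NFKB1 and from -0.096 to 0.027 for RELA. Other values that turned their sign were -0.065 for NFKBIA without CTRL library 2 and -0.0022 for NFKB1 without ODC library 4, both at 2 h. For the difference between time points they were 0.071, 0.027 and 0.051 for CHUK, without CTRL library 1 and ODC library 4 of 2 h and CTRL library 5 of 24 h, each left out alone, and -0.0040 for NFKB1 without CTRL library 2 of 2 h. For TNFAIP3 they were -0.25 and -0.21 without ODC libraries 3 and 5 of 2 h, and -0.062, -0.085 and -0.16 without CTRL libraries 1 and 3 and ODC library 4 of 24 h. The CHUK to IKBKB log2 ratio at 2 h ranged from -0.18 to 0.13 when 1 library was left out, and was -0.22 without CTRL library 1 and ODC library 4. A lone CTRL library left at 2 h was assumed to vary like the ODC libraries. TRAF1 had 13 to 147 counts in the CTRL libraries of 24 h and 16 to 90 counts over the libraries of 2 h.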
